A study of Mus musculus with 8 samples.

Results

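TREM receptors and TAM receptors are surface proteins with which macrophages sense lipids, microbial products and dying cells, and 8 of their genes are described here of the 53647 genes in the count table. The members were taken by name: the immunoglobulin-type receptors Trem1, Trem2, Trem3 and Treml2, the adaptor Tyrobp, the receptor tyrosine kinases Mertk and Axl, and their ligand Gas6. PolyA RNA had been sequenced from sorted leukemia macrophages of C57BL/6 mice in 2 groups. In the E-Mac group (MSC-educated, 4 libraries) the macrophages had shared a culture with mesenchymal stromal cells for 12 h, and in the Mac group (4 libraries) they had been kept by themselves for 12 h. Mesenchymal stromal cells are fibroblast-like cells that support blood formation. The sources used here do not give the leukemia model, the age of the mice, the source of the stromal cells or the sorting gate.

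TREM1, TREM2 and mouse TREM3 have short tails without a signalling motif and depend on DAP12, the product of Tyrobp, whose immunoreceptor tyrosine-based activation motif (ITAM) recruits the kinase SYK. TREM1 amplifies inflammatory responses of neutrophils and monocytes, whereas TREM2 binds lipids, lipoproteins and cell debris and is known for macrophages that handle lipid. MERTK and AXL, together with TYRO3 the TAM family, bind phosphatidylserine on dying cells through the bridging proteins GAS6 and protein S, promote engulfment and dampen interferon and cytokine signalling.

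Total counts ran from 13395172 to 15761884 in E-Mac and from 11664600 to 15581601 in Mac. The 20 macrophage core markers summed to 13121 ± 1890 CPM in E-Mac and 14539 ± 543 in Mac (SD, n = 4 each, exact two-sided permutation p = 0.2). Only Vsig4 was at 0 throughout. Of the 19 markers tested 10 rose and 4 fell. The lysozyme gene Lyz2 held most of the sum and fell (6147 ± 899.8 CPM in E-Mac and 11204 ± 359.6 in Mac), and the other 19 markers summed to 6974 ± 1002 CPM in E-Mac and 3335 ± 222.7 in Mac, a sum taken after the values were seen and not tested. Among those that rose were Cd68 (652 ± 130.4 CPM in E-Mac and 222 ± 13.6 in Mac) and the Fc receptor gene Fcgr1 (807.5 ± 180 CPM in E-Mac and 140.4 ± 5.87 in Mac). Besides Lyz2, those that fell were C1qa (45.55 ± 9.75 CPM in E-Mac and 90.1 ± 18.1 in Mac), Cd163 (1.66 ± 0.788 CPM in E-Mac and 6.84 ± 0.836 in Mac) and Cd5l (1.04 ± 0.303 CPM in E-Mac and 4.67 ± 0.944 in Mac). CPM are counts per 1000000 counts in the tested genes, scaled by TMM factors. The direction and the call of the full sum depend on scaling and libraries, since E-Mac minus Mac was -2804 CPM with library totals only (exact p = 0.0286) and 23.15 CPM with E-Mac 1 and 3 alone (exact p = 1). Neutrophil and granulocyte markers (21 genes) summed to 12937 to 20408 CPM in E-Mac and 38707 to 42755 CPM in Mac. Stromal markers (24 genes) summed to 107, 533, 80.4 and 601 CPM in E-Mac 1 to 4 and to 25.98 to 28.3 CPM in Mac. For either sum the exact p was 0.0286, the smallest that 4 against 4 libraries allow, and 0.0476 after adjustment over 10 marker lists. The stromal sum was not called when any 1 Mac library was left out (exact p = 0.1714 each). Its difference, E-Mac minus Mac, hardly moved there (303 to 303.8 CPM), and the groups still did not overlap. This difference was 66.7 CPM with E-Mac 1 and 3 alone, against 303.4 CPM with all libraries. With E-Mac 1 and 3 alone the exact p of either sum was 0.0667. That is the smallest that 2 against 4 libraries allow, so no sum could pass 0.05 in this setting. On the second principal component E-Mac 2 and 4 lay at -17.8 and -24.9 and E-Mac 1 and 3 at 22.1 and 19.2. Results are therefore also given without E-Mac 2 and 4. The pair that remains was chosen from these data and is the most alike within E-Mac, so p-values in this setting are no added support. The neutrophil and granulocyte sum exceeded the macrophage core sum in all Mac libraries and in E-Mac 2 and 4. In E-Mac 1 and 3 it lay below the macrophage core sum. Sums of different marker lists are no measure of cell shares, and the purity of the sorted cells was not tested. In bulk RNA, fewer cells of a type and less RNA per cell cannot be told apart. The labels do not say that libraries of a group came from separate cultures or animals, and the spread that the p-values measure may therefore be technical.

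Trem2 and Mertk rose more than 3-fold in E-Mac, Treml2, Tyrobp and Gas6 rose by smaller or less certain amounts, Trem3 fell, and Trem1 and Axl gave no call. All 8 members passed the filter on low counts. By edgeR's quasi-likelihood test with Benjamini-Hochberg adjustment over all 13412 genes tested, 5 of the 8 members rose and 1 fell at an adjusted p under 0.05. Over all genes 58.3% were called, 29.5% higher and 28.8% lower in E-Mac, so the share of members called is not far above the background. Scaling by library totals only moved the median log2 fold change of all genes by -0.14 and changed the split of all calls to 2996 higher and 5018 lower, against 3954 higher and 3860 lower with TMM factors. The count of 5 higher and 1 lower among the members was the same there (59.8% of all genes called), with E-Mac 1 and 3 alone (60.1%) and with the replicate number as a block (55.6%). A called change of at least 2-fold was found for 3 members (Trem2, Mertk and Gas6), against 20.1% of all genes; all 3 were higher, against 9.57% of all genes. In 5 members the groups did not overlap, 4 of them higher and 1 lower, against 53.9% of all genes (26.7% higher and 27.2% lower). No member fell by 2-fold or more, against 10.5% of all genes.

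**Figure D1:**
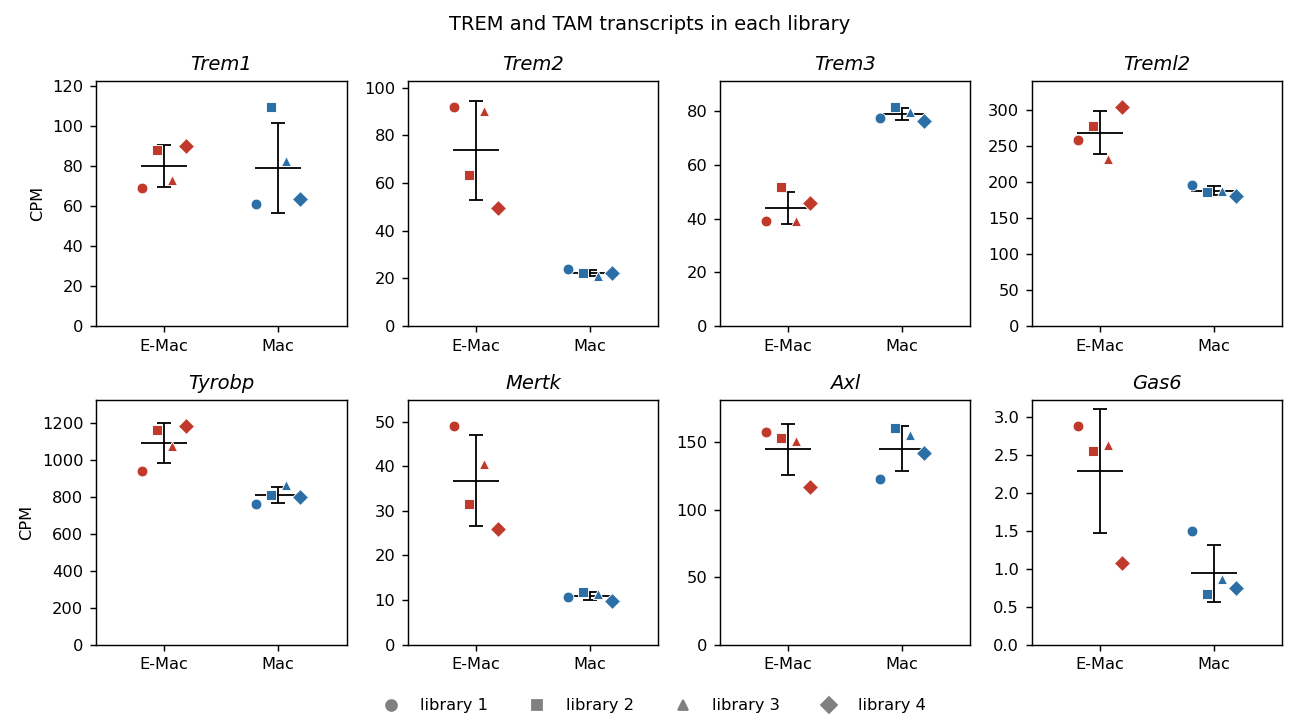
CPM of the 8 members in each library, E-Mac left and Mac right in each panel, with the mean and SD of 4 libraries as bars and a symbol for each library number. Trem2 and Mertk lie above all Mac libraries in all E-Mac libraries, with E-Mac 1 and 3 highest, while the groups of Trem1, Axl and Gas6 overlap.

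The reference sequences upstream of the receptors are shown for the pair that rose together and for the cluster neighbour and family partner that gave no call. Each runs from 250 bases before to 50 bases after the RefSeq start (GRCm38.p6), 5′ to 3′ on the gene's strand. The promoter table held 5 of the 8 members. Capitals mark matches, on either strand, to any of 9 short motifs.
Trem2, chr17:48346151-48346450, plus strand: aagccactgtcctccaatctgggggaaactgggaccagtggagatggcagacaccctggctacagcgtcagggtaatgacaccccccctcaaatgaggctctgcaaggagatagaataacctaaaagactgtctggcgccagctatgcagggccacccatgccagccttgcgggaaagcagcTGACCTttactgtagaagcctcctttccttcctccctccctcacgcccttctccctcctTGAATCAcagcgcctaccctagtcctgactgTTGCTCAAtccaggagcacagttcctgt
Mertk, chr2:128698665-128698964, plus strand: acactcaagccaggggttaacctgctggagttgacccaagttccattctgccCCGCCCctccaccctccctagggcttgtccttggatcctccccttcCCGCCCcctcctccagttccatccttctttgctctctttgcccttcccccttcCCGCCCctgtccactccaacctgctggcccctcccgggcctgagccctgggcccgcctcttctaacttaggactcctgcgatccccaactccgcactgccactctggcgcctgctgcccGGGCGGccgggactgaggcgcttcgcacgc
Trem1, chr17:48232489-48232788, plus strand: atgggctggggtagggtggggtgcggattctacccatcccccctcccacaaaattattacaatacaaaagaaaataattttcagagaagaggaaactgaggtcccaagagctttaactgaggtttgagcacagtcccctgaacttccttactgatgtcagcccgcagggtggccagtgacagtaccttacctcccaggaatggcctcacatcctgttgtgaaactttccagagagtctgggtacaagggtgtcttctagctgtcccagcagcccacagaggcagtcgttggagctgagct
Axl, chr7:25788684-25788983, minus strand: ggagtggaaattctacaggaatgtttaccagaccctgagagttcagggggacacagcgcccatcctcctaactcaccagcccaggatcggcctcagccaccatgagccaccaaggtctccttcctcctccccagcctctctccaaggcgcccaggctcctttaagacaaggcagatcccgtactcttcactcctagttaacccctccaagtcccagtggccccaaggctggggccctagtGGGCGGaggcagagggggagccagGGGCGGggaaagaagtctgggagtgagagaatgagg

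The motifs were PU.1 (GAGGAAGT), C/EBP (TTGCNNAA), AP-1 (TGANTCA), the NF-kB motif, the nuclear receptor word AGGTCA, the interferon-stimulated response element, the TATA box (TATAAA), the GC box (GGGCGG) and the E-box CACGTG, and both strands were searched. Trem2 held AP-1 at -9, C/EBP at 22 and AGGTCA on the minus strand at -68, counted from the start site, and 7.81, 10.8 and 16.3% of all 32851 promoters in the table held these words. Mertk and Axl shared the GC box, which 35.7% of all promoters held, with 4 matches in Mertk and 2 in Axl. Trem1 held none of the 9, and no match says only that these letters are not in this window. PU.1, NF-kB, the interferon element, the TATA box and the E-box, absent from these 4 windows, stood in 3.2, 1.63, 3.44, 13.6 and 7.15% of all promoters. Trem2 and Mertk, whose fold changes were alike, thus had none of these words in common. No matched motifs overlapped each other, and a match is no evidence that a factor binds.

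Of the TREM receptors Trem2 had the largest fold change. Its level was 91.8, 63.3, 90.05 and 49.6 CPM in E-Mac 1 to 4, against 23.9, 22.15, 20.8 and 22.1 CPM in Mac 1 to 4. All E-Mac libraries lay above all Mac libraries, with E-Mac 2 and 4 lowest in their group. The log2 fold change was 1.73 ± 0.18 (SE, adjusted p = 1.16e-05), a 3.31-fold increase with a 95% confidence interval of 2.51 to 4.37. With E-Mac 1 and 3 alone, where Trem2 was highest, the log2 fold change was 2.04.

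Trem3, a DAP12-coupled activating receptor of mouse myeloid cells that lies next to Trem1, went the other way. It stood at 39.1, 51.6, 39.0 and 45.7 CPM in E-Mac, against 77.5, 81.4, 79.7 and 76.4 CPM in Mac. The groups did not overlap, and the Mac libraries lay within a narrow band. The log2 fold change was -0.84 ± 0.09 (adjusted p = 3.67e-06), with a 95% interval from -1.04 to -0.65.

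Trem1, the receptor that amplifies inflammatory cytokine release, had 69.2, 88.1, 72.8 and 90.0 CPM in E-Mac and 61.1, 109, 82.6 and 63.3 CPM in Mac. The Mac libraries spanned more than the whole E-Mac range, with Mac 2 highest and Mac 1 lowest of all 8. The log2 fold change of 0.02 ± 0.18 did not pass (adjusted p = 0.9305). Its interval, -0.38 to 0.42, corresponds to 0.769-fold to 1.34-fold, so a change within that range was not detectable with this spread.

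Treml2, whose product binds no DAP12 and is found on myeloid and B cells, had 258.5, 278, 232.5 and 304 CPM in E-Mac against 196, 187, 188 and 181 CPM in Mac. All 4 E-Mac libraries lay above the Mac libraries, E-Mac 4 farthest. The increase was 1.43-fold (log2 0.51 ± 0.08, adjusted p = 0.000119).

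The annotated TREM cluster on mouse chromosome 17 (mm10, GENCODE M21, 48232768 to 48367176) spans 134.4 kb and holds 7 protein-coding genes on the same strand, in the order Trem1, Trem3, Treml4, Treml2, B430306N03Rik, Trem2 and Treml1. In M21 Trem1 ends at 48246924, Trem3 runs over 48247777 to 48258841, Treml2 over 48299498 to 48312533 and Trem2 over 48346401 to 48354147, and no exon of another gene overlaps theirs. Neighbouring genes differed in direction. Treml4, a receptor of nonclassical monocytes and some dendritic cells, fell beside Trem3, with 21.4, 26, 21.8 and 24.9 CPM in E-Mac against 57.1, 64.9, 59.8 and 51.2 CPM in Mac (log2 -1.31 ± 0.10, adjusted p = 1.09e-07). B430306N03Rik, between Treml2 and Trem2, rose (0.96 ± 0.08, adjusted p = 2.45e-07) with 378 ± 26.8 CPM in E-Mac against 194.5 ± 14.7 in Mac. Treml1, a platelet gene, was too low to test, with 12 counts over the E-Mac group and 2 over the Mac group. Trem3 and Treml4 thus lay side by side, as did Treml2, B430306N03Rik and Trem2, as the map of the cluster shows. Treml4 belongs to the monocyte marker list, of whose 8 genes 6 fell and 1 rose. Those that fell were Treml4, Ccr2, Cx3cr1, Nr4a1, Ace and Spn. Ly6c2, the highest gene of the list in E-Mac, rose (2559 ± 112.8 CPM in E-Mac and 946.1 ± 26.5 in Mac), so the sum does not follow the genes that fell. The sum of that list was 4454 ± 146 CPM in E-Mac and 4498 ± 60.6 CPM in Mac (exact permutation p = 0.743). With library totals only E-Mac minus Mac was -490.6 CPM (exact permutation p = 0.0286). The part of the list in the Treml4 value was not tested.

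**Figure D2:**
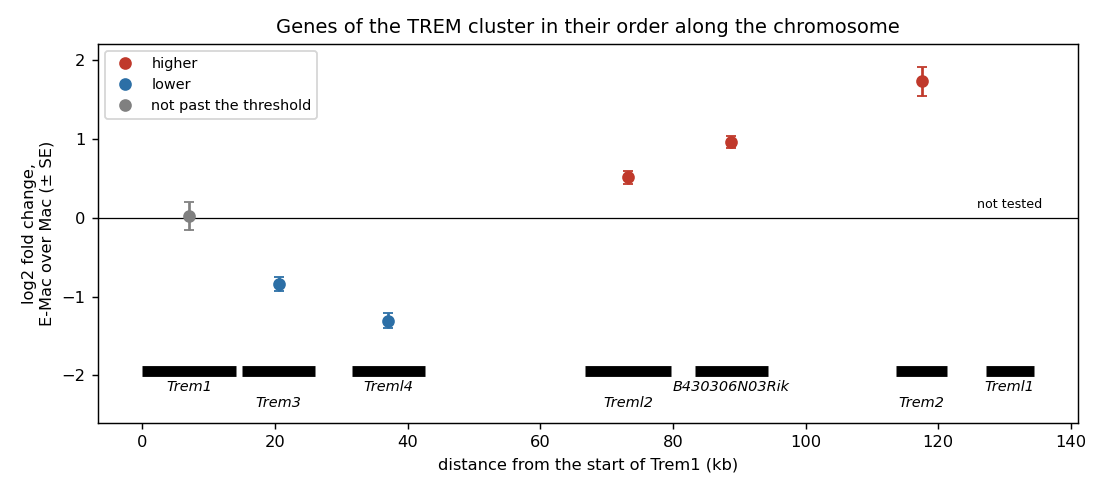
Log2 fold change, E-Mac over Mac, with its standard error for each tested gene of the TREM cluster (vertical axis) at the gene's distance from the start of Trem1 in kb (horizontal axis); black bars mark the genes. Trem3 and Treml4 lie below 0, and Treml2, B430306N03Rik and Trem2 lie above it in rising order of fold change.

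Per length, the make-up of the TREM transcripts shifted. TPM, transcripts per 1000000, were computed with the longest protein-coding transcript of each gene in GENCODE M21. Of the summed TPM of Trem1, Trem2, Trem3 and Treml2, Trem2 held 39.85, 27.8, 40.4 and 23.0% in E-Mac 1 to 4, against 12.9, 11.0, 11.0 and 12.4% in Mac 1 to 4. Trem3 held 21.45 ± 3.04% in E-Mac and 45.8 ± 1.18% in Mac (SD, n = 4 each). Every E-Mac library thus lay above every Mac library in the share of Trem2 and below every Mac library in the share of Trem3. Among the members other than Tyrobp, Trem2 (153 ± 42.2 TPM) and Treml2 (152.5 ± 20.2 TPM) stood highest in E-Mac, followed by Trem3 (99.75 ± 13.5), Axl (76.5 ± 9.07), Trem1 (60.5 ± 8.44), Mertk (19.3 ± 5.42) and Gas6 (2.02 ± 0.711). In Mac the order of these members was Trem3 (191 ± 4.04), Treml2 (114 ± 5.66), Axl (81.7 ± 8.07), Trem1 (63.4 ± 16.8), Trem2 (49.2 ± 3.57), Mertk (6.10 ± 0.425) and Gas6 (0.892 ± 0.378). The ranges of 4 libraries overlapped for Trem2 and Treml2, Trem2 and Trem3, and Axl and Trem1 in E-Mac, and for Axl and Trem1 and for Trem1 and Trem2 in Mac. The rank of Trem2 and the shares of the summed TREM TPM depend on the length used for Trem2. A retained-intron transcript brings the exon union of Trem2 to 4946 bases against 1088 bases for the longest mRNA. With exon unions for all genes the mean of Trem2 was 46.3 TPM in E-Mac and 14.7 TPM in Mac, below Trem1 (83.2 TPM in E-Mac and 85.9 TPM in Mac). Shares were not computed with exon unions.

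**Figure D3:**
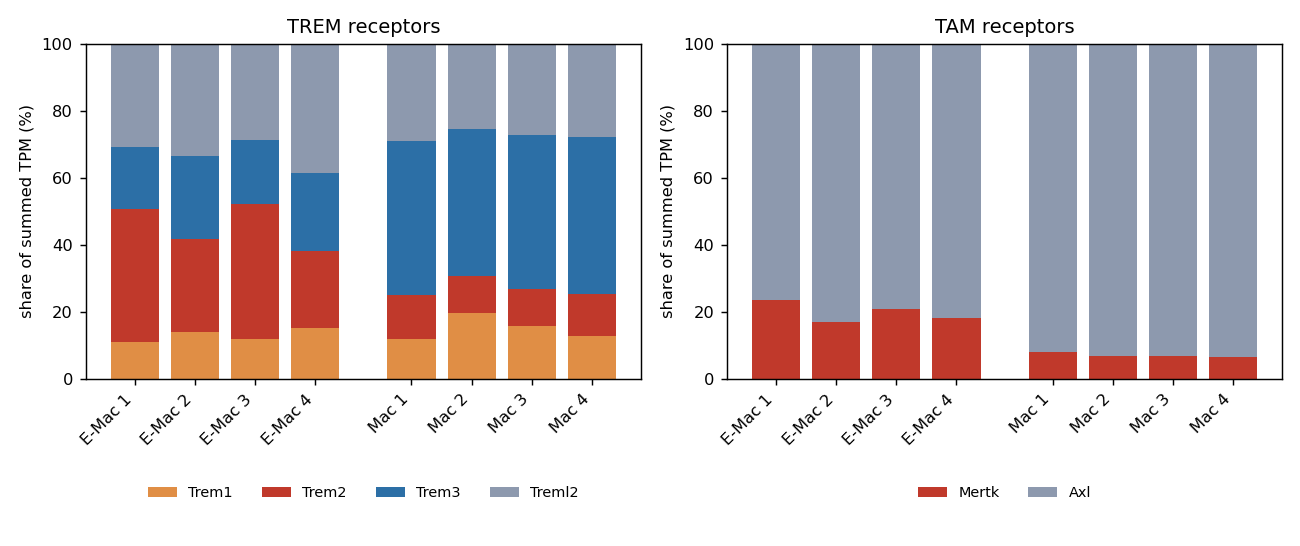
Share of the summed TPM in each library (bars, E-Mac left of Mac) held by Trem1, Trem2, Trem3 and Treml2 in the left panel and by Mertk and Axl in the right panel. TPM use the longest protein-coding transcript of each gene, and the TREM shares depend on that choice. Trem2 and Mertk hold larger shares in all 4 E-Mac libraries and Trem3 and Axl smaller ones.

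Tyrobp (chr7:30413760-30417585), which encodes the adaptor shared by Trem1, Trem2 and Trem3, was the most abundant member at 4139 ± 427 TPM in E-Mac and 3267 ± 140.5 TPM in Mac. Its level was 943, 1164, 1078 and 1186 CPM in E-Mac against 764, 811, 867 and 801 CPM in Mac. Every E-Mac library lay above every Mac library, although E-Mac 1 and Mac 3 were close. The increase was 1.35-fold (95% interval 1.19 to 1.53, log2 0.43 ± 0.08, adjusted p = 0.000660). Per library, Tyrobp TPM was 10.8 to 16.3 times the sum of Trem1, Trem2 and Trem3 in E-Mac and 9.79 to 11.4 times in Mac. Like the shares, this ratio depends on the length used for Trem2, and it was not computed per library with exon unions. DAP12 also serves other receptors, so the ratio is no measure of how much adaptor each TREM has.

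Of the TAM receptors Mertk rose. MERTK is the TAM receptor best known for the uptake of apoptotic cells by resting macrophages, and its gene lies at chr2:128698956-128802894 (mm10). It had 49.1, 31.5, 40.5 and 26.02 CPM in E-Mac against 10.6, 11.8, 11.4 and 9.86 CPM in Mac. The groups did not overlap, and E-Mac 1 and 3 were again the highest. The increase was 3.37-fold (95% interval 2.59 to 4.39, log2 1.75 ± 0.18, adjusted p = 2.68e-06). With E-Mac 1 and 3 alone, where Mertk was highest, the log2 value was 2.05.

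Axl (chr7:25757273-25788705) encodes the TAM receptor usually linked to interferon and inflammatory stimulation. It had 157, 153, 151 and 117 CPM in E-Mac against 123, 161, 155.5 and 141.5 CPM in Mac. The groups overlapped, and E-Mac 4 was the lowest library. The log2 fold change was -0.0054 ± 0.10 (adjusted p = 0.9685) with a 95% interval from -0.23 to 0.22. Its sign depends on the setting, for example 0.095 with E-Mac 1 and 3 alone. Axl remained the more abundant of the pair per length, at 3.23 to 4.90 times the TPM of Mertk in E-Mac and 11.7 to 14.5 times in Mac. Tyro3, the third TAM receptor, was too low to test, with 10 counts over the E-Mac group and 8 over the Mac group.

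The genes of both bridging ligands were called, in opposite directions. Gas6 (chr8:13465374-13494490) had 37, 37, 39 and 15 counts in E-Mac against 24, 8, 14 and 12 counts in Mac, or 2.28 ± 0.816 CPM in E-Mac against 0.939 ± 0.376 CPM in Mac (SD, n = 4 each). E-Mac 4 lay below Mac 1, so the groups overlapped, and the level was low in both. The log2 fold change of 1.26 ± 0.37 passed the test (adjusted p = 0.0105), as it did in all alternatives that tested the gene (0.00147 to 0.0338). Exons of Gas6 overlap those of Tmem255b on the opposite strand, which had 0 counts in every library. Stromal cells are a known source of Gas6 and also carry Axl. The stromal marker sum was highest in E-Mac 4 and E-Mac 2, and Gas6 was lowest in E-Mac 4; a part of stromal RNA in the Gas6 value was not tested. Pros1, which encodes protein S, had 5.61, 5.36, 8.08 and 6.76 CPM in E-Mac against 29.8, 28.5, 34.9 and 43.3 CPM in Mac. Pros1 fell with no overlap of the groups (log2 -2.40 ± 0.165, adjusted p = 5.08e-08). Per length, Pros1 stood at 4.41 ± 0.809 TPM in E-Mac and 24.85 ± 4.89 TPM in Mac, still above Gas6 in either group.

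**Figure D4:**
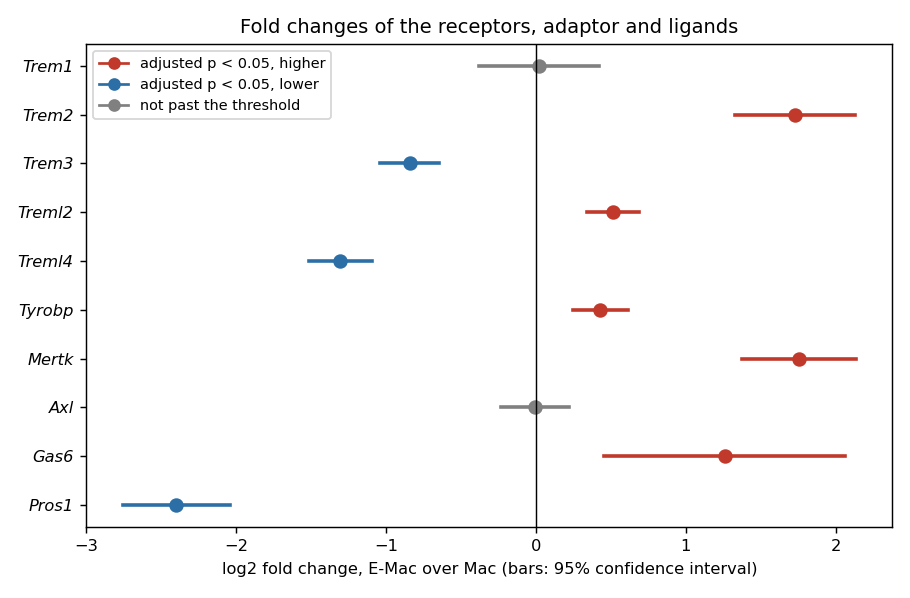
Log2 fold change, E-Mac over Mac (horizontal axis, points), with its 95% confidence interval (bars) for the 8 members and for Treml4 and Pros1. Trem2 and Mertk have nearly the same value, 1.73 and 1.75, and the intervals of Trem1 and Axl include 0.

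Within E-Mac, libraries 1 and 3 differed from libraries 2 and 4 in all members but Axl and Gas6. E-Mac 1 and 3 were above E-Mac 2 and 4 in Trem2 and Mertk and below them in Trem1, Trem3, Treml2 and Tyrobp. Gas6 was 2.884, 2.545, 2.627 and 1.078 CPM in E-Mac 1 to 4, so only E-Mac 4 stood apart. The neutrophil and granulocyte sum of E-Mac 1 to 4 was 12937, 20408, 13612 and 17670 CPM. The macrophage scavenger receptor gene Msr1 had 1295, 933, 1241 and 662 CPM in E-Mac 1 to 4 and ranged over 97.35 to 100.3 CPM in Mac. The macrophage core sum without Lyz2 was 7669, 6877, 7756 and 5593 CPM in E-Mac 1 to 4 and 3041 to 3576 CPM in Mac, and its part in the Trem2 and Mertk values was not tested. Trem1 and Trem3 are also expressed by neutrophils, and between the groups the neutrophil list fell in 14 of its 21 genes and rose in 2; its part in the TREM values was not tested. Without E-Mac 2 and 4 the log2 values were -1.0 for Trem3, 0.39 for Treml2, 0.32 for Tyrobp and 1.53 for Gas6. Each was still called (largest adjusted p = 0.00154), but that setting was picked from these data.

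Genes with the profile most like that of a member were ranked by the root mean square difference of centred log2 CPM over the 8 libraries, among 8674 genes with a mean of 10 CPM or more. Near Trem2 lay Tmem106a and the potassium-chloride cotransporter Slc12a4 (differences of 0.111 and 0.114). Near Mertk lay Mvk, an enzyme of the mevalonate pathway, and the vitamin C transporter Slc23a2 (0.101 and 0.116). Mvk and Slc23a2 had log2 fold changes of 1.82 ± 0.20 and 1.73 ± 0.13. Trem3 lay closest to Cybb, the catalytic subunit of the phagocyte oxidase (0.038), then Inpp4a (0.061) and Txnip (0.064). Treml2 lay closest to Itpr3 (0.034), Gm8995 (0.035) and Iqgap1 (0.049), and Tyrobp to Zbtb22 (0.043), Cotl1 (0.044) and Akt1 (0.049). Trem1 lay closest to Plk3 (0.099), the cytokine gene Osm (0.128) and the immediate early gene Egr1 (0.132), and Axl to Rab9 (0.054), Ppp2r5b (0.064) and the growth factor receptor gene Csf1r (0.066). The libraries of a group share their condition, so this likeness is mostly a shared group difference where a member changed.

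Partners of the pathways are given by list, each count to be set beside the 58.3% of all genes called and the median log2 fold change of -0.003 over all genes tested. Syk, Fcer1g, Hcst, Inpp5d, Ptpn6, Adam10, Adam17, Socs3, Cd36, Thbs1, Sirpa, Cd47, Spp1, Vkorc1, Vkorc1l1, Msr1, Cd68, Fcgr1 and B430306N03Rik fall outside the naming rule and were picked with their values in view. Cd163, Cd5l, Nr4a1, Ace and Spn, named because they fell on a marker list, fall outside it too.

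Other receptors and adaptors of the DAP12 and ITAM kind moved in both directions. Of 14 tested, 7 rose and 5 fell (median 0.15). The Fc receptor gamma chain Fcer1g, another ITAM adaptor, rose (0.49 ± 0.07, adjusted p = 8.5e-05), and Hcst, which encodes the adaptor DAP10, did not pass (-0.19 ± 0.17, adjusted p = 0.372). Clec5a, a DAP12-coupled lectin of myeloid cells, rose (0.49 ± 0.06). Those that fell were Cd300e (-2.202 ± 0.11), Sirpb1a (-1.54 ± 0.11), Sirpb1b (-0.43 ± 0.09), Sirpb1c (-0.57 ± 0.09) and Pilrb2 (-0.24 ± 0.08). The Sirpb1 genes are closely related copies whose reads may be shared in an unknown way. Pilrb2 was not called without E-Mac 3, Mac 2 or Mac 3 (adjusted p = 0.0603, 0.0543 and 0.0551) and with no filter (0.0727).

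The enzymes and scaffolds below the ITAM were close to the background. Of 27 tested, 10 rose and 7 fell (median -0.04), which became 6 and 11 with library totals only, and 11 fell with E-Mac 1 and 3 alone. Syk itself was 765 ± 101 CPM in E-Mac and 693 ± 15.99 CPM in Mac and did not pass (0.14 ± 0.09, adjusted p = 0.19). Pik3ap1, which links receptors to phosphoinositide 3-kinase, rose to 505 ± 55.8 CPM in E-Mac, against 103 ± 6.26 CPM in Mac (2.30 ± 0.09, adjusted p = 2.37e-10). The membrane scaffold Lat2 rose (0.91 ± 0.12), and Card9, the adaptor between SYK and NF-kB, fell (-0.70 ± 0.06). Among 12 inhibitors of ITAM signalling 6 rose and 3 fell (median 0.29). Ubash3b, a phosphatase that acts on SYK (1.74 ± 0.08), and the adaptor Dok2 (0.89 ± 0.08) rose, as did the inositol phosphatase SHIP1 gene Inpp5d (0.45 ± 0.06). The ubiquitin ligase genes Cblb (-2.07 ± 0.09) and Cbl (-0.39 ± 0.08) and the adaptor Dok3 (-0.34 ± 0.08) fell, and the phosphatase gene Ptpn6 did not pass (-0.06 ± 0.07, adjusted p = 0.468).

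On the list of TREM ligands and shedding enzymes the 3 tested genes entered as ligands fell, and 8 of the other genes rose. The list does not hold every reported TREM ligand. Of 13 tested genes 8 rose and 3 fell (median 0.47). The ligand genes were Pglyrp1 (-1.02 ± 0.16), a TREM1 ligand of neutrophil granules, Hmgb1 (-0.38 ± 0.08) and Apoe (-0.70 ± 0.11), which encodes a TREM2 ligand. The proteases Adam10 (0.54 ± 0.07) and Adam17 (0.59 ± 0.06), which release TREM2 and MERTK from the surface, and Rhbdf2 (0.82 ± 0.07), which encodes the ADAM17 partner iRhom2, rose with adjusted p-values of at most 2.75e-05. Ms4a4a (1.40 ± 0.12) and Ms4a6d (2.58 ± 0.14) rose too; in humans the MS4A locus is linked to the level of soluble TREM2. Pglyrp1 is itself a neutrophil transcript, at 190.5 ± 50.4 CPM in E-Mac and 385 ± 12.6 CPM in Mac.

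The other TAM genes leaned downward, 1 up and 4 down of 5 tested (median -0.74). Besides Pros1, Ggcx fell (-0.74 ± 0.14), whose enzyme makes the carboxyglutamate residues with which GAS6 and protein S bind phosphatidylserine, and so did the vitamin K reductase genes Vkorc1 (-0.87 ± 0.33) and Vkorc1l1 (-0.41 ± 0.09). Vkorc1 was low, at 0.789 ± 0.193 CPM in E-Mac and 1.45 ± 0.315 CPM in Mac. Its groups overlapped, and its adjusted p was 0.0367. The gene that rose was Lgals3 (1.51 ± 0.11), which encodes galectin-3, a reported MERTK ligand. Of 6 genes of TAM feedback and interferon receptors 5 rose and 0 fell (median 0.93), among them the cytokine signalling inhibitors Socs1 (3.04 ± 0.12) and Socs3 (0.68 ± 0.09) and the receptor chain Ifnar1 (1.18 ± 0.08). Socs1 reached 77.0 ± 11.8 CPM in E-Mac, against 9.34 ± 0.549 CPM in Mac. Of the nuclear receptors known to induce Mertk 3 rose and 2 fell of 6 (median 0.19), or 2 and 2 with library totals only. Nr1h3, which encodes LXR alpha (0.78 ± 0.12), and Ppard (0.56 ± 0.08) rose, and Rxrb (-0.85 ± 0.10) and Pparg (-0.38 ± 0.11) fell.

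Other receptors and bridging molecules for apoptotic cells rose in 11 and fell in 5 of 19 cases (median 0.71). The crosslinking enzyme Tgm2 (3.01 ± 0.08), the phosphatidylserine receptor Stab1 (4.68 ± 0.18), the integrin chain Itgav (1.07 ± 0.07), the scavenger receptor Cd36 (2.65 ± 0.20) and the matrix protein Thbs1 (3.52 ± 0.20) rose. Those that fell were Itgb3 (-0.74 ± 0.25), Stab2 (0.0921 ± 0.114 CPM in E-Mac and 1.41 ± 0.285 CPM in Mac), Cd300a (-0.93 ± 0.09), C1qa (-0.98 ± 0.17) and Anxa1 (-1.20 ± 0.08). Itgb3 was not called without E-Mac 2, E-Mac 3, Mac 2 or Mac 3 (adjusted p = 0.062, 0.0738, 0.0606 and 0.0575) nor with no filter (0.126). Of 13 tested genes of the engulfment machinery 1 rose and 6 fell (median -0.07), and 2 rose without E-Mac 4, without Mac 1 or with E-Mac 1 and 3 alone. Elmo2, part of the Rac activator complex, fell (-1.79 ± 0.08), as did Ucp2 (-0.90 ± 0.07), and the lipid exporter Abca1 rose (3.25 ± 0.16). Of 9 genes for find-me signals and the CD47 and SIRP alpha pair 6 rose and 1 fell (median 0.88). The sphingosine phosphate receptor S1pr1 (4.21 ± 0.15), the nucleotide receptor P2ry2 (1.57 ± 0.11) and Sirpa (0.88 ± 0.07) rose, Cx3cr1 fell (-0.92 ± 0.07), and Cd47 did not pass (0.14 ± 0.06, adjusted p = 0.0626).

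The last list held 19 genes linked in mouse studies to Trem2 and lipid-handling macrophages. It does not separate genes that need Trem2 from those that do not, and a part of Trem2 in their values was not tested. With library totals only, without E-Mac 4 or with E-Mac 1 and 3 alone 2 of them fell. In the main fit 15 rose and 1 fell (median 1.51). Among them were the membrane glycoprotein Gpnmb, at 823 ± 217.5 CPM in E-Mac and 3.90 ± 1.18 CPM in Mac (7.72 ± 0.30, adjusted p = 2.51e-08), and Spp1, which encodes osteopontin, at 560 ± 202 CPM in E-Mac and 5.99 ± 0.802 CPM in Mac (6.55 ± 0.32, adjusted p = 1.94e-07). The lysosomal protease Ctsd rose (2.203 ± 0.08), and Apoe was the gene that fell. Lgals3, Apoe and Lilrb4a stand on 2 of these lists.

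**Figure D5:**
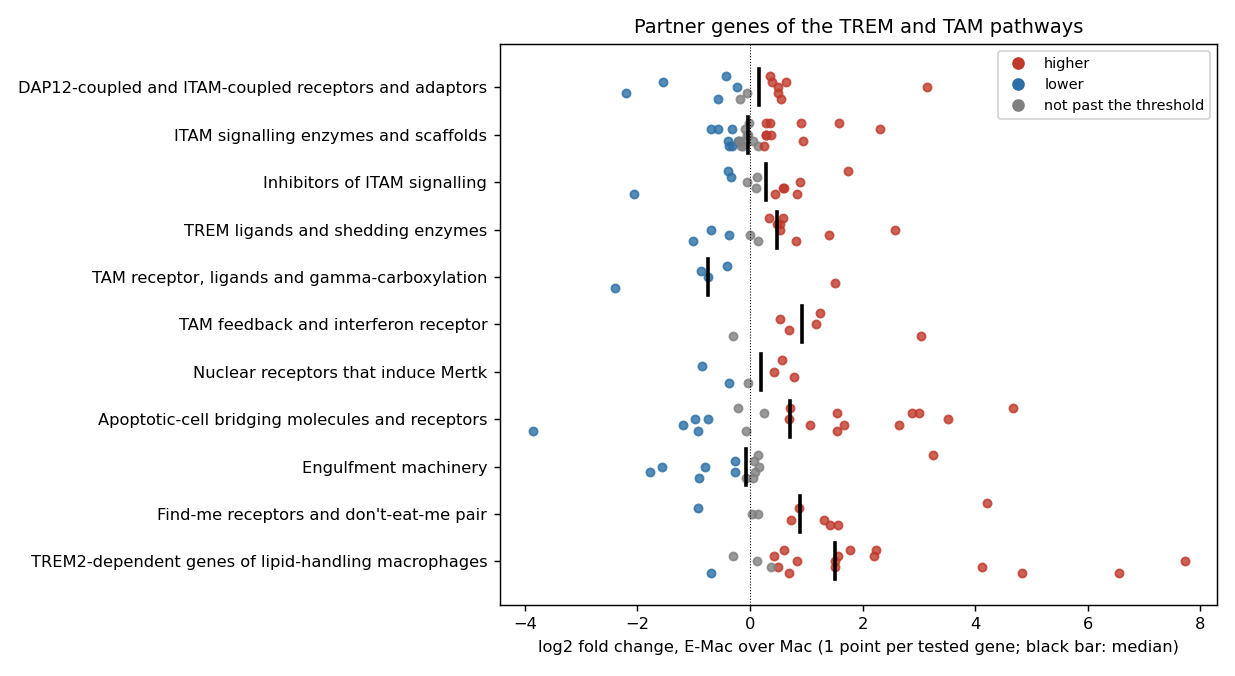
Log2 fold change, E-Mac over Mac (horizontal axis), of each tested gene on the 11 partner lists with 5 or more tested genes (rows); colours give the call and black bars the list medians. The medians run from -0.74 for the TAM ligands and carboxylation genes to 1.51 for the list of genes linked to Trem2. The row label of that list calls its genes TREM2-dependent, which does not hold for each of them.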

How the data were processed

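The deposited file is a table of raw counts that the authors made per gene symbol. As software the submitters' processing notes list HISAT2, featureCounts of Subread, bcl2fastq and DESeq2 (no versions), with build mm10. The sources used here do not give the annotation release, the strand setting or how multi-mapping reads were handled. None of the 50-base words of the members' transcripts occurred in another gene's transcripts (GENCODE M21), read on the transcript strand. Reverse complements were not searched, so overlaps on the opposite strand, such as that of Gas6 and Tmem255b, are not covered. Date-like names (26 of 53673, with 0.133 to 0.160% of the counts) were dropped.

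The group effect was fitted over all 8 libraries by robust quasi-likelihood in edgeR 4.0.16 (R 4.3.3) with TMM scaling, after filterByExpr at a count of 10 and a total of 15. P-values were adjusted by Benjamini-Hochberg over 13412 genes and called under 0.05. The standard error is the size of the log2 fold change over the square root of F. CPM and TPM were computed here from the deposited counts, TPM over 13307 tested genes with an M21 length. Libraries of a group differed by more than sampling noise in every pair (lowest chi-square per degree of freedom 4.85). The fit was tested on simulated data. Alternatives were upper-quartile or RLE factors, totals only, no filter, 10 CPM in 4 libraries, limma-voom (limma 3.58.1), DESeq2 1.42.0, a replicate block, leaving out each library, and E-Mac 1 and 3 alone.

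Members, lists and tests were chosen with earlier results of these data known. Named genes were the 8 members, Tyro3 and Pros1, the 3 genes with the smallest adjusted p of each of 12 partner lists, genes called against a list's majority where 5 or fewer, the 3 highest genes of each marker list, and the 3 genes most like each member with 10 CPM or more; some are not reported here. The 10 marker lists were macrophage core, monocyte, neutrophil and granulocyte, stromal, dendritic cell, osteoclast, B cell, T and NK cell, erythroid and megakaryocyte, and stem and progenitor markers. The last 6 summed to 51.8 ± 14.4, 196 ± 18.6, 150.4 ± 34.0, 4.75 ± 0.782, 154 ± 42.3 and 67.7 ± 9.18 CPM in E-Mac and 80.2 ± 2.50, 208 ± 16.2, 232 ± 7.45, 21.25 ± 4.11, 98.3 ± 8.70 and 99.7 ± 8.97 CPM in Mac (exact two-sided permutation p = 0.0286, 0.257, 0.0286, 0.0286, 0.0857 and 0.0286).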

Additional observations from a re-analysis of the deposited data

Results flagged for a closer look

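In 2 of 40 groups of 4 libraries (the 8 members, Treml4, Pros1 and the 10 marker sums, each in E-Mac and in Mac) 1 library lay far from the other 3, and chance gives about 1 in 20. Axl was 116.7 CPM in E-Mac 4, against 151 to 157 CPM in the other E-Mac libraries. That library also had the lowest Mertk, Trem2 and Gas6 of its group and the highest stromal marker sum. The T and NK cell marker sum was 5.924 CPM in E-Mac 1, against 4.313 to 4.445 CPM in the other E-Mac libraries; it bears on no member.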

How the results depend on the processing

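The calls of Trem2, Trem3, Treml2, Tyrobp and Mertk held in 17 of 17 alternatives and that of Gas6 in 16 of 16, since the stricter filter of 10 CPM left it untested. Their log2 fold changes ranged over 1.58 to 2.04 (Trem2), -1.0 to -0.78 (Trem3), 0.37 to 0.58 (Treml2), 0.29 to 0.50 (Tyrobp), 1.59 to 2.05 (Mertk) and 1.11 to 1.57 (Gas6). The count of genes called was 5890 to 8496 over the alternatives. Trem1 and Axl were called nowhere (adjusted p 0.166 to 0.983 and 0.205 to 0.98), and their sign turned. Trem1 was -0.0744 with upper-quartile factors, -0.12 with library totals only, -0.0154 with 10 CPM in 4 libraries, -0.14 with E-Mac 1 and 3 alone, and -0.0854 to 0.23 when 1 library was left out. Axl was 0.0226 with no filter, 0.0953 with E-Mac 1 and 3 alone, and -0.078 to 0.0908 when 1 library was left out.

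Other genes near 0 turned as well, and of the values given here 1 was called. Csf1r was -0.0423 with upper-quartile factors and -0.0872 with library totals only, and Syk -0.00122 with library totals only and -0.0251 with E-Mac 1 and 3 alone. Egr1 was 0.00386 with no filter, 0.05 with the replicate block, 0.0519 with limma-voom and -0.17 to 0.29 without single libraries (called without Mac 2, adjusted p = 0.0411). Rab9 was 0.00116 with RLE factors, 0.0278 with no filter, 0.00121 with DESeq2, 0.15 with E-Mac 1 and 3 alone and -0.0595 to 0.0979 without single libraries. Ppp2r5b was 0.0204 with no filter, 0.12 with E-Mac 1 and 3 alone and -0.0735 to 0.0983 without single libraries. Without single libraries Plk3 was -0.17 to 0.0969 and Osm -0.24 to 0.0565. E-Mac minus Mac was -78.28 to 28.09 CPM for the monocyte sum without single libraries, and 23.15 CPM for the macrophage sum with E-Mac 1 and 3 alone. The cause was not tested.

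The replicate numbers do not pair the libraries by label, and same-numbered libraries did not deviate together (r of -0.05, 0.05, 0.01 and -0.13 for numbers 1 to 4). With the replicate number as a block 7458 genes were called against 7814 without it, and the log2 fold changes of Trem2 and Mertk were 1.69 and 1.72; the block changed no call among the members. Gas6, Tyro3 and Treml1 are limited by depth.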
